A study of Mus musculus with 4 samples.

Results

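The voltage-gated sodium channel genes, the voltage-gated calcium channel genes, the HCN channel genes and the sodium leak channel gene Nalcn made up 37 of the 32531 gene rows in the count tables of 4 mouse striatal libraries. They were chosen by symbol alone: the sodium channel alpha and beta subunits (symbols of Scn with a number and a or b), all symbols beginning with Cacna, Cacnb1 to Cacnb4, the 4 HCN genes and Nalcn. The rule itself reads no measured value. The comparison set nucleus accumbens (2 libraries) against dorsal striatum (2 libraries). Both groups came from mice aged over 20 months of the line Drd1-TRAP CP73, in which the Drd1 promoter drives EGFP fused to the ribosomal protein Rpl10a, a tag made for pulling down ribosomes from neurons that express the D1 dopamine receptor. All 4 libraries are of the input kind, taken here as total RNA of the dissected tissue without that pull-down, so they hold RNA of every cell type present. Mice without the transgene and younger mice were not analysed here. The labels do not state whether the 4 libraries came from 4 animals or from pools. A p-value here therefore judges a regional difference against the spread between libraries, and that spread may be technical.

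Voltage-gated sodium channels open on depolarisation and carry the upstroke of the action potential. Each has a large pore-forming alpha subunit and small beta subunits that set its gating and its place in the membrane. Voltage-gated calcium channels turn depolarisation into calcium entry: Cav1 channels carry long-lasting currents at cell bodies and dendrites, Cav2 channels serve transmitter release, and Cav3 channels open near rest. Alpha2delta and beta subunits bring the Cav1 and Cav2 pores to the membrane. HCN channels open on hyperpolarisation and pass a depolarising cation current, and NALCN passes a steady sodium leak. Most striatal neurons are spiny projection neurons, whose resting potential is strongly negative and whose firing depends on how these inward currents compare with potassium currents.

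The libraries held 8606099 and 8478403 gene counts in accumbens, and 8991788 and 11849134 in dorsal striatum. Channel genes took 0.565% and 0.478% of these counts in accumbens, and 0.563% and 0.584% in dorsal striatum. A floor of 3 counts stood at between 0.239 and 0.375 CPM (counts scaled to the library total and corrected by TMM for library composition), for counting error only. Spiny neuron markers were present in every library, and their 3 lists did not go one way. General markers, summed over Ppp1r1b, Bcl11b, Rgs9 and Foxp1 reached 2754 and 2558 CPM in accumbens, against 3804 and 3815 CPM in dorsal striatum. Of these 4 markers, Rgs9 alone passed the test, with a lower level in accumbens, and without it the sums were 2095 and 1895 CPM in accumbens, against 2213 and 2500 CPM in dorsal striatum. Markers of direct pathway spiny neurons (Drd1, Tac1, Pdyn, Isl1 and Chrm4) summed to 637 and 524 CPM in accumbens, against 488 and 480 CPM in dorsal striatum, with 4 of 5 on the higher side in accumbens and Pdyn past the test. Without Pdyn the sums were 449 and 362 CPM in accumbens, against 423 and 403 CPM in dorsal striatum, and overlapped. The marker on the lower side was Drd1, at 258 and 220 CPM in accumbens, against 300 and 286 CPM in dorsal striatum. Markers of indirect pathway spiny neurons (Drd2, Adora2a, Penk, Gpr6 and Sp9) summed to 1441 and 1016 CPM in accumbens, against 842 and 1028 CPM in dorsal striatum, with 4 of 5 on the higher side and none past the test. The libraries also differed in markers of cortical glutamatergic neurons, which lie next to both regions: 6 genes summed to 277 and 131 CPM in accumbens, against 79.2 and 8.45 CPM in dorsal striatum, with Neurod6 at 0 counts in dorsal striatum replicate 2 and none of the 6 past the test. GABA interneuron markers summed to 260 and 232 CPM in accumbens, against 118 and 139 CPM in dorsal striatum, and Sst was the member of that list that passed. Without Sst the sums were 66.3 and 89.1 CPM in accumbens, against 64.1 and 81.0 CPM in dorsal striatum, and 3 of the 6 tested were on the higher side in accumbens. Oligodendrocyte markers summed to 1998 and 2350.5 CPM in accumbens, against 1932 and 1324 CPM in dorsal striatum, with none past the test. Microglia markers summed to 58.7 and 59.8 CPM in accumbens, against 47.7 and 35.9 CPM in dorsal striatum, again with none past it. Astrocyte sums overlapped, at 312 and 297 CPM in accumbens, against 330 and 207 CPM in dorsal striatum. Of the 5 astrocyte markers, 3 were on the higher side, and Gja1 alone passed, higher in accumbens. The accumbens replicates stood further apart than the dorsal striatum replicates. Across genes, which are not independent replicates, log2 CPM correlated at r = 0.917 between the accumbens replicates and at r = 0.982 between the dorsal striatum replicates. Between an accumbens and a dorsal striatum library r was 0.923 to 0.945. By this measure each accumbens library was closer to both dorsal striatum libraries than to the other accumbens library.

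No channel gene passed the test between accumbens and dorsal striatum. Levels are CPM scaled by TMM, fold changes and log2 ratios are accumbens over dorsal striatum, and a gene was called at an adjusted p under 0.05, adjusted by Benjamini-Hochberg over all genes tested with edgeR's quasi-likelihood test. Of the 37 members, 32 had enough counts to be tested and 0 were called, where 186 of 14493 genes (1.28%) were called, 0.994% higher in accumbens and 0.29% lower. At an unadjusted p under 0.05 there were 8 of 32 members (25%), beside 19.2% of all genes. Of these 8, 3 (9.38% of 32) had the higher level in accumbens, Cacna1e and Cacna1g among them, beside 10.9% of all genes, and 5 (15.6% of 32) the lower (Scn3a, Scn4b, Cacna2d3, Cacnb2 and Cacnb4), beside 8.27%. The levels of the regions did not overlap for 16 of 32 members (50%), beside 51.2% of all genes, with accumbens above for 10 (31.2%) and below for 6 (18.8%), beside 25.6% of all genes in each direction. DESeq2 called 3 members (1 higher in accumbens and 2 lower, Scn4b and Cacnb4) of 27 it gave an adjusted p, beside 10.4% of all such genes, and limma-voom called 2 (Cacnb4 among them, lower), beside 2.97%. The call also depended on single accumbens libraries. Without accumbens replicate 1, 4 of 33 members passed (1 higher, and 3 lower: Cacna2d3, Cacnb4 and Scn4b), beside 18.2% of all genes. Without accumbens replicate 2, 13 of 32 passed, 10 of them higher, beside 28.9% of all genes. In both cases the variance comes from the dorsal striatum pair, and the lone accumbens library is assumed to share it. Leaving out dorsal striatum replicate 1 or replicate 2 gave 0 of 32, beside 0.71% and 1.09% of all genes.

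The regional differences of the channel genes were small. Their median size, with the sign left out, was 0.26 on the log2 scale, beside 0.36 over all genes tested. Within 1.5-fold lay 27 of 32 members (84.4%), beside 70.2% of all genes. Channel genes are also well expressed, and among genes of at least 10 CPM the shares were 86.2% of 29 members and 78.7% of 9434 genes. The median sizes among genes of at least 10 CPM were closer, at 0.26 for the members and 0.31 for all genes. The signed median was 0.10 over the members and 0.02 over all genes, with 18 members on the higher side in accumbens and 14 on the lower. Scaling by library size alone moved the median over all genes to -0.15 and that over the members to -0.07. In the members, the replicates of accumbens differed by a median of 0.32 on the log2 scale, and those of dorsal striatum by 0.10. Accumbens replicate 1 had the higher level in 24 of 32 members (75%), beside 49.9% of all genes. Fewer cells of a type and less RNA per cell cannot be told apart in bulk tissue, here and in every value that follows.

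**Figure D1:**
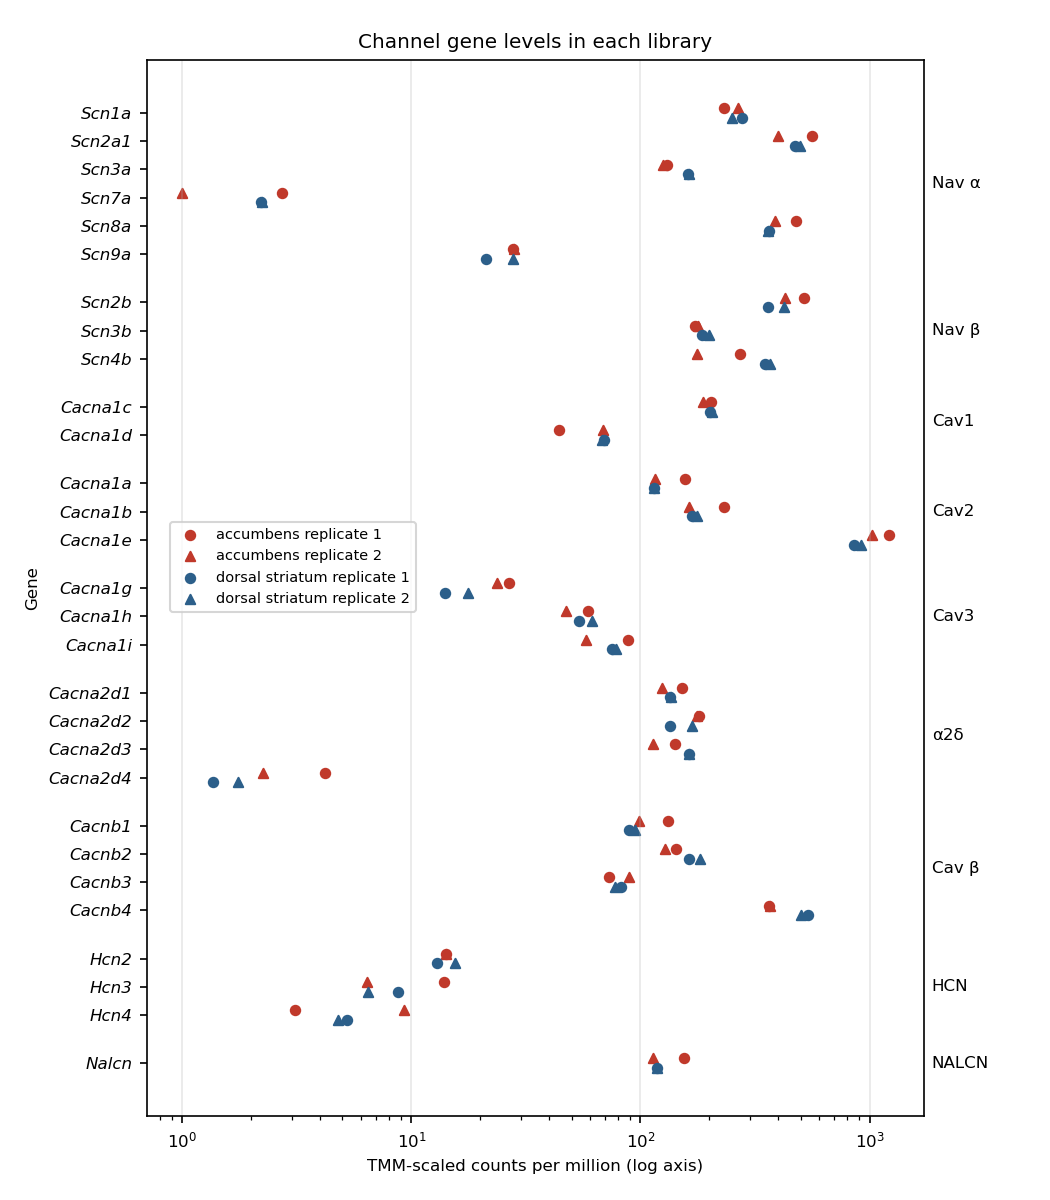
TMM-scaled CPM (log axis) of 29 tested channel genes, grouped by subfamily, with 1 point per library (red, accumbens; blue, dorsal striatum; circles, replicate 1; triangles, replicate 2). Levels did not overlap between the regions for 14 of these 29 genes, beside 51.2% of all genes tested. The widest accumbens pairs are at the low end of the axis.

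Among the sodium channel beta subunits, Scn4b showed the largest regional difference, with the lower level in accumbens. The beta-4 subunit is known in striatum as an abundant partner of sodium channels whose cytoplasmic tail can block the open pore and give resurgent current. Scn4b lies on chromosome 9 at 45138395 to 45154152 (plus strand, mm10), 8324 bases after the end of Scn2b at 45117782 to 45130070. It had 272 and 177 CPM in accumbens, against 351 and 369 CPM in dorsal striatum. Both accumbens libraries lay below both dorsal striatum libraries, and the accumbens pair was itself spread over more than 1.5-fold. The log2 fold change was -0.68 (SE 0.19, 1.6-fold higher in dorsal striatum), with an unadjusted p of 0.00762 and an adjusted p of 0.122. It ranged from -0.85 to -0.65 over the other settings, and was -1.03 without accumbens replicate 1 and -0.41 without accumbens replicate 2. Of the spiny neuron markers, all 4 of the general list were on the lower side in accumbens. Their lower sum came mostly through Rgs9 (659 and 663 CPM in accumbens, against 1590 and 1314 CPM in dorsal striatum). Of the 10 direct and indirect pathway markers, 8 were on the higher side, and Drd1 and Drd2 on the lower. The part of spiny neuron content in the Scn4b difference was not tested.

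Scn2b encodes a subunit joined to the alpha subunit by a disulfide bond, as beta-4 is. Scn2b had 516 and 426 CPM in accumbens, against 360 and 425 CPM in dorsal striatum, with accumbens replicate 2 and dorsal striatum replicate 2 almost equal (log2 fold change 0.26, SE 0.14, adjusted p = 0.368). The neighbouring genes thus stood on opposite sides: Scn4b had 0.527 and 0.416 times the counts of Scn2b in accumbens, against 0.975 and 0.869 times in dorsal striatum. That ratio did not overlap between the regions and is free of scaling, but it uses the same Scn4b counts and is not separate evidence. Scn3b, whose beta-3 subunit binds without a covalent bond, had 173 and 178 CPM in accumbens, against 185 and 199 CPM in dorsal striatum, a small gap with tight pairs (log2 fold change -0.13, SE 0.13, adjusted p = 0.639).

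**Figure D2:**
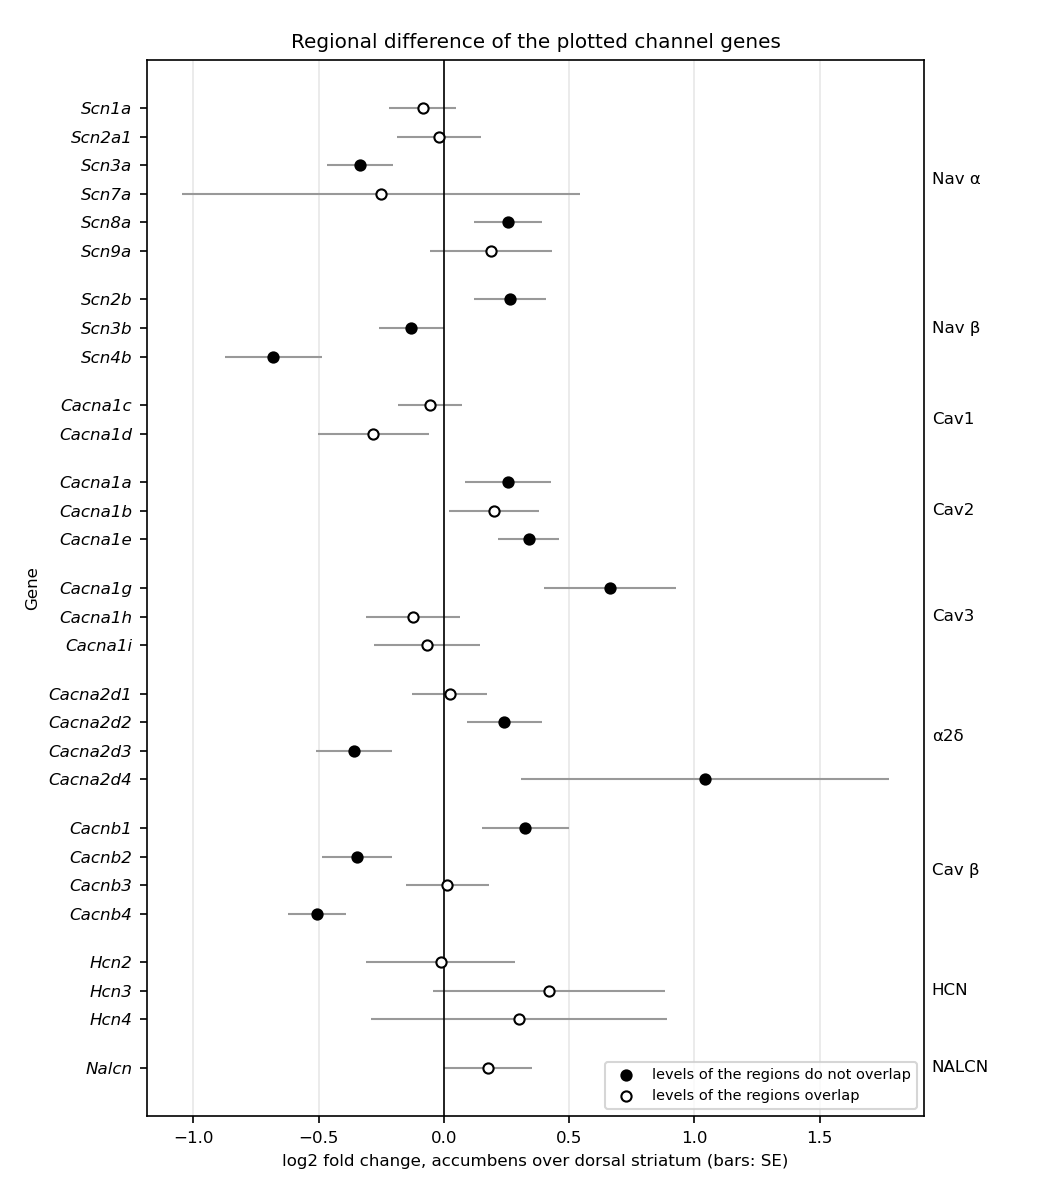
Log2 fold change of 29 tested channel genes, accumbens over dorsal striatum, with its standard error as a bar; filled points mark genes whose library levels did not overlap between the regions. Cacna2d4 (1.04) and Cacna1g (0.66) lie furthest to the right and Scn4b (-0.68) and Cacnb4 (-0.51) furthest to the left, and no gene shown had an adjusted p under 0.05.

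None of the 4 calcium channel beta subunit genes was called, and Cacnb4 had the largest difference among them, with the lower level in accumbens. Beta subunits are cytoplasmic partners that carry the pore-forming subunit to the membrane and shape its inactivation. Cacnb4, the gene mutated in the lethargic mouse, lies on chromosome 2 at 52428320 to 52676831 (minus strand, mm10). It had 363 and 367 CPM in accumbens, against 538 and 500 CPM in dorsal striatum. The accumbens libraries were nearly equal and both lay below the dorsal striatum pair, and the means with their SD (n = 2 each) were 365 ± 2.28 CPM for accumbens and 519 ± 27.3 CPM for dorsal striatum. The log2 fold change of -0.51 (SE 0.12, 1.42-fold higher in dorsal striatum) had an unadjusted p of 0.00225 and an adjusted p of 0.0776, the smallest among the members. It stayed between -0.68 and -0.45 over the other settings and between -0.56 and -0.47 with a library left out. Exons of the transcript A430018G15Rik overlap Cacnb4 by 1433 bases on the opposite strand, and the strand setting of the counting is not given in the sources used here. The same spiny neuron marker lists, which did not go one way, stand beside this value, and their part in it was not tested either.

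The 3 other beta genes showed no shared side. Cacnb2, a beta subunit with a membrane-anchored form that slows inactivation, had 142 and 128 CPM in accumbens, against 163 and 181 CPM in dorsal striatum, with accumbens below (log2 fold change -0.35, SE 0.14, adjusted p = 0.231). Cacnb1, the subunit of skeletal muscle that is also made in brain, had 131 and 98.8 CPM in accumbens, against 88.8 and 94.8 CPM in dorsal striatum, with accumbens above (0.33, SE 0.17, adjusted p = 0.355); the value was 0.10 with the GC offset and without accumbens replicate 1. Cacnb3, a beta subunit common in brain, had 72.7 and 88.9 CPM in accumbens, against 82.5 and 77.5 CPM in dorsal striatum, and its regions overlapped. Cacnb4 had 1.05 and 1.16 times the summed counts of the other beta genes in accumbens, against 1.61 and 1.41 times in dorsal striatum. As a share of the summed level per kilobase it was 30.4% and 32.2% in accumbens, against 40.2% and 37.3% in dorsal striatum, while the sum itself was 146 and 139 CPM per kilobase in accumbens, against 163 and 163 in dorsal striatum.

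**Figure D3:**
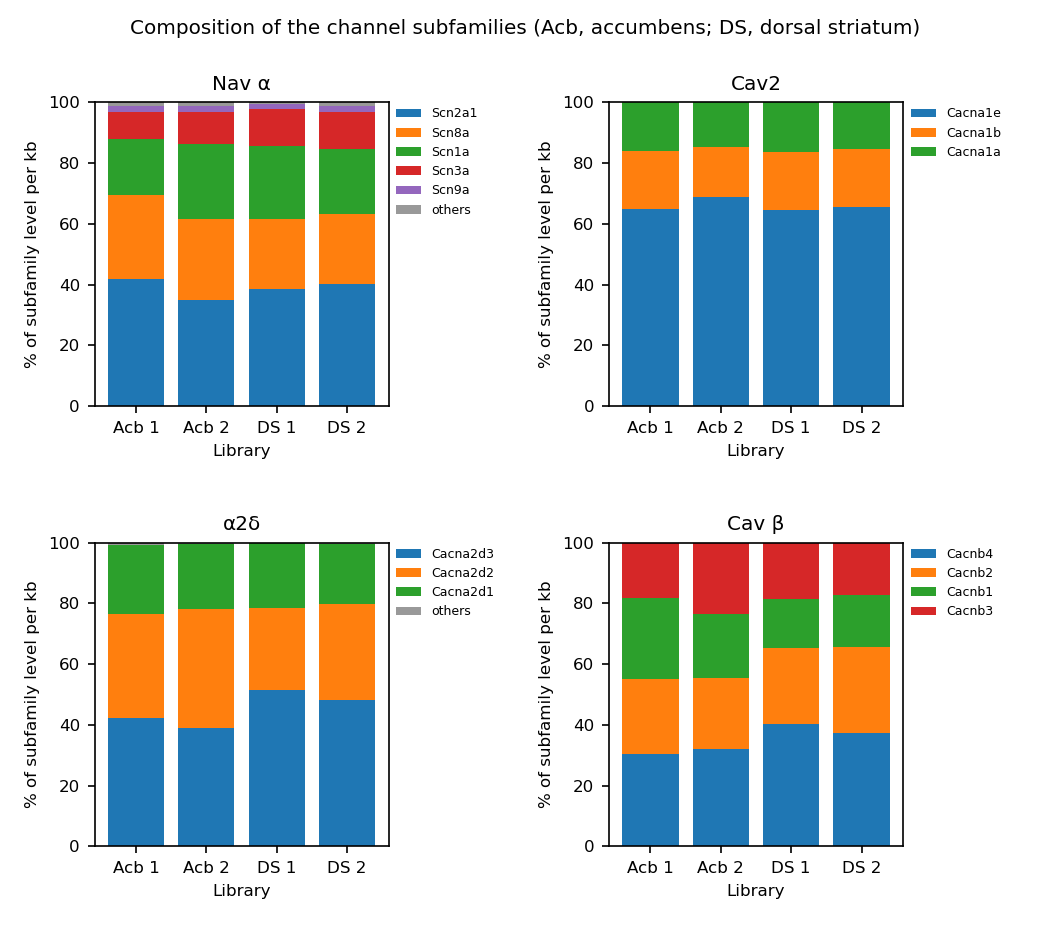
Share of each gene in the summed level per kilobase of its subfamily (vertical axis, percent), with 1 bar per library in 4 panels (Acb, accumbens; DS, dorsal striatum; "others" are genes at under 1% in each bar). The Cacnb4 and Cacna2d3 segments are smaller in both accumbens bars than in both dorsal striatum bars, and the Scn8a segment is larger.

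Pore-forming sodium channel genes were led by Scn2a1, Scn8a and Scn1a in both regions. Scn2a1 is the older symbol of Scn2a and encodes Nav1.2, found in axon initial segments and dendrites. It had 564 and 397 CPM in accumbens, against 474 and 499 CPM in dorsal striatum, where both dorsal striatum libraries lay inside the accumbens range (log2 fold change -0.02, SE 0.17, adjusted p = 0.971). Scn8a, encoding Nav1.6 of axon initial segments and nodes, had 478 and 389 CPM in accumbens, against 363 and 362 CPM in dorsal striatum. Both accumbens libraries lay above the dorsal striatum pair (log2 fold change 0.26, SE 0.14, adjusted p = 0.347), with a value of 0.10 without accumbens replicate 1 and 0.40 without accumbens replicate 2. Scn8a made up 27.7% and 26.7% of the alpha level per kilobase in accumbens, against 23.1% and 22.8% in dorsal striatum. Scn1a, the Nav1.1 gene that is prominent in GABA interneurons, had 232 and 266 CPM in accumbens, against 278 and 250 CPM in dorsal striatum, and its regions overlapped (log2 fold change -0.08, adjusted p = 0.793). Scn3a, the Nav1.3 gene that is best known from the developing brain, had 131 and 125 CPM in accumbens, against 161 and 163 CPM in dorsal striatum. Its pairs were tight and did not overlap, with the lower level in accumbens (log2 fold change -0.34, SE 0.13, unadjusted p = 0.0336, adjusted p = 0.220). Of the low genes, Scn9a, the Nav1.7 gene of sensory neurons, was at between 21.1 and 28.1 CPM in the 4 libraries, and Scn7a, the sodium sensor Nax of glia, at 1.00 to 2.73 CPM. Scn10a and Scn11a of nociceptors, Scn4a of skeletal muscle, Cacna1f of photoreceptors and Cacna1s of skeletal muscle were left out by the filter, with 0 to 11 counts in any library and 0 counts of Scn4a in all 4. In sum the alpha genes reached 151 and 127 CPM per kilobase in accumbens, against 138 and 139 in dorsal striatum, so the accumbens pair enclosed the dorsal striatum values.

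All 3 Cav2 genes had positive fold changes, and this was the one multi-gene subfamily of pore subunits with all members on the higher side in accumbens. None of the 3 was called, and the values rested in part on accumbens replicate 1: without it they were 0.21 for Cacna1e, -0.08 for Cacna1b and 0.015 for Cacna1a. Cacna1e, the Cav2.3 gene of R-type current, was the most abundant channel gene in CPM: 1212 and 1024 in accumbens, against 854 and 914 in dorsal striatum. Its accumbens pair lay above its dorsal striatum pair (log2 fold change 0.34, SE 0.12, unadjusted p = 0.024, adjusted p = 0.188). The cortical glutamatergic markers stood higher in the same libraries (277 and 131 CPM in accumbens, against 79.2 and 8.45 CPM in dorsal striatum), and their part in this difference was not tested. Cacna1b, the Cav2.2 gene of N-type current, had 232 and 163 CPM in accumbens, against 168 and 176 CPM in dorsal striatum, so only accumbens replicate 1 stood above (0.20, SE 0.18, adjusted p = 0.596). Cacna1a, the Cav2.1 gene of P/Q-type current, had 157 and 116 CPM in accumbens, against 114 and 114 CPM in dorsal striatum, with accumbens replicate 2 just above the dorsal striatum pair (0.26, SE 0.17, adjusted p = 0.471, and 0.065 with the GC offset). Cacna1e took 65.0% and 68.7% of the Cav2 level per kilobase in accumbens, against 64.4% and 65.4% in dorsal striatum, so the make-up of the subfamily was close in both regions.

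Cav1 and Cav3 genes gave smaller or less even differences. Cacna1c, the Cav1.2 gene that carries most L-type current of brain, had 202 and 188 CPM in accumbens, against 201 and 204 CPM in dorsal striatum (log2 ratio -0.05, SE 0.13, adjusted p = 0.863). Cacna1d, whose Cav1.3 channels open at more negative voltages and act in spiny neuron dendrites, had 44.2 and 68.5 CPM in accumbens, against 69.2 and 67.8 CPM in dorsal striatum. Only accumbens replicate 1 was low, the log2 fold change was -0.28 (SE 0.22, adjusted p = 0.540), and it was -0.63 without accumbens replicate 2 and -0.0027 without accumbens replicate 1. Exons of Chdh overlap Cacna1d by 589 bases on the opposite strand, and the Chdh row had 25 and 76 counts in accumbens, against 76 and 74 in dorsal striatum. Both genes were thus low in accumbens replicate 1, and the part of shared reads was not tested. Of the Cav3 genes, which carry T-type current, Cacna1g had 26.6 and 23.6 CPM in accumbens, against 14.1 and 17.6 CPM in dorsal striatum. Its pairs did not overlap, with accumbens above (log2 fold change 0.66, SE 0.26, unadjusted p = 0.0356, adjusted p = 0.225). Cacna1h had 58.8 and 47.3 CPM in accumbens, against 54.1 and 61.4 CPM in dorsal striatum, and Cacna1i had 88.4 and 58.1 CPM in accumbens, against 75.3 and 78.2 CPM in dorsal striatum. For both, the regions overlapped, with log2 fold changes of -0.12 (adjusted p = 0.781) and -0.07 (adjusted p = 0.907).

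The HCN genes Hcn2, Hcn3 and Hcn4 were at low levels, and none separated the regions. Hcn2, whose subunit is widespread in brain and is strongly sensitive to cyclic AMP, had 14.1 and 14.1 CPM in accumbens, against 12.9 and 15.5 CPM in dorsal striatum. Its log2 fold change was -0.01 (SE 0.30, adjusted p = 0.988), and its regions overlapped. Hcn3, a slow subunit little affected by cyclic AMP, had 13.9 and 6.38 CPM in accumbens, against 8.72 and 6.45 CPM in dorsal striatum. Only accumbens replicate 1 stood apart, and the log2 fold change of 0.42 (SE 0.46, adjusted p = 0.681) became -0.24 without it. Hcn4, the pacemaker subunit of the heart and thalamus, had 3.1 and 9.25 CPM in accumbens, against 5.25 and 4.78 CPM in dorsal striatum, where both dorsal striatum values lay between the accumbens ones (log2 fold change 0.30, SE 0.59, adjusted p = 0.836).

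The alpha2delta subunits, extracellular proteins that raise the number of calcium channels at the membrane, included no called gene. Cacna2d3 had 141 and 113 CPM in accumbens, against 163 and 163 CPM in dorsal striatum, with the accumbens pair below (log2 fold change -0.36, SE 0.15, unadjusted p = 0.0455, adjusted p = 0.249). Cacna2d2, one of the binding sites of gabapentin, had 180 and 177 CPM in accumbens, against 134 and 167 CPM in dorsal striatum, with the accumbens pair above (0.24, SE 0.15, adjusted p = 0.426). Cacna2d1, the other gabapentin site, had 151 and 124 CPM in accumbens, against 135 and 136 CPM in dorsal striatum, and overlapped (0.02, adjusted p = 0.957). The largest fold change of any member was that of Cacna2d4, a gene known from retina, at 4.21 and 2.25 CPM in accumbens, against 1.37 and 1.75 CPM in dorsal striatum. These are 34 and 18 counts in accumbens, against 13 and 22 in dorsal striatum, and the log2 fold change of 1.04 had a standard error of 0.73 (adjusted p = 0.491). Nalcn, the leak channel gene, had 155 and 113 CPM in accumbens, against 119 and 118 CPM in dorsal striatum, where the accumbens pair enclosed the dorsal striatum pair (0.18, SE 0.17, adjusted p = 0.637).

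Levels between genes can be compared per kilobase of transcript. On that scale Scn2b led in both regions, at 101.2 CPM per kilobase in accumbens and 84.3 in dorsal striatum. Scn4b took place 4 of the 37 genes in accumbens at 45.1 CPM per kilobase, and place 2 in dorsal striatum at 72.3. Cacna1e took place 2 in accumbens at 74.9 and place 4 in dorsal striatum at 59.3. Cacnb4 took place 5 in accumbens at 44.4 and place 3 in dorsal striatum at 63.1. The order depends on the transcript length chosen, here the longest protein-coding transcript of each gene. Channel transcripts are long, with a median of 7681 bases among the 32 tested members and 3362 over the genes with a value.

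**Figure D4:**
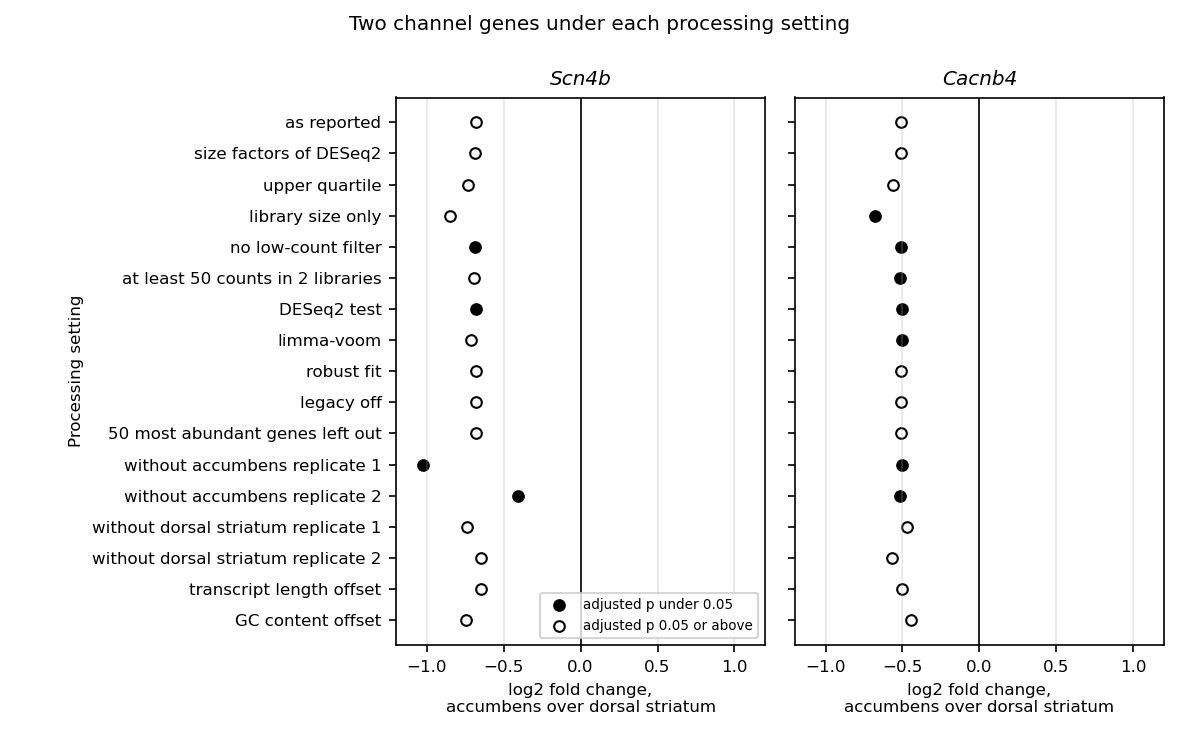
Log2 fold change of Scn4b and Cacnb4, accumbens over dorsal striatum, under the processing settings listed on the vertical axis; filled points have an adjusted p under 0.05. Every point of a gene lies on the same side of 0; the Cacnb4 points stay closest together, and the Scn4b points move when an accumbens library is left out.

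Genes that work with these channels were compared from a separate list of 43 names, of which 39 were in the files and 32 were tested. None was called (0 of 32, beside 1.28% of all genes), 5 had an unadjusted p under 0.05 (beside 19.2%), and 22 were on the higher side in accumbens (beside 51.4%) and 10 on the lower, with a median log2 fold change of 0.13, beside 0.02 over all genes. DESeq2 called 3 of 29 (Cacng7, Fgf12 and Stac2, all higher in accumbens), beside 10.4% of all genes, and limma-voom called Stac2, beside 2.97%. Leaving out accumbens replicate 1 gave 7 of 34, beside 18.2% of all genes, and leaving out accumbens replicate 2 gave 6 of 34, beside 28.9%. Of the partners of sodium channels, Ank3, the ankyrin that anchors them in axon initial segments, had 1425 and 1314 CPM in accumbens, against 1222 and 1161 CPM in dorsal striatum (log2 ratio 0.20, SE 0.11, adjusted p = 0.354). Nedd4l, a ubiquitin ligase of sodium channels, had 886 and 840 CPM in accumbens, against 783 and 748 CPM in dorsal striatum (0.17, adjusted p = 0.435). Accumbens lay above for both, without overlap. Rims2, an active-zone protein that binds calcium channel beta subunits, had 161 and 167 CPM in accumbens, against 171 and 149 CPM in dorsal striatum, and Rimbp2, which links calcium channels to the active zone, had 131 and 132 CPM in accumbens, against 118 and 116 CPM in dorsal striatum. Their log2 fold changes were 0.04 and 0.17. Pex5l (TRIP8b), the HCN trafficking subunit, had 86.3 and 97.3 CPM in accumbens, against 92.6 and 77.7 CPM in dorsal striatum (0.11, adjusted p = 0.776). Vapb, a membrane protein that binds HCN channels, had 73.3 and 118 CPM in accumbens, against 98.5 and 106 CPM in dorsal striatum (-0.10, adjusted p = 0.855). The NALCN partners Unc80 (590 and 653 CPM in accumbens, against 662 and 638 CPM in dorsal striatum) and Unc79 (182 and 162 CPM in accumbens, against 180 and 185 CPM in dorsal striatum) overlapped. Stac2, an adaptor of Cav1 channels named after its values were seen, had 63.1 and 41.5 CPM in accumbens, against 25.1 and 18.7 CPM in dorsal striatum. Its accumbens pair lay above (log2 fold change 1.26, SE 0.27, 2.39-fold), with an unadjusted p of 0.0015 and an adjusted p of 0.0658, the closest to the threshold of this list.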

How the data were processed

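RNA of 4 libraries, 2 from accumbens and 2 from dorsal striatum, was compared. The values are whole-number counts, not normalized, listed by gene symbol in 1 deposited table for each library. Alignment was by STAR 2.0.0e and counting by HTSeq on mm10, per the submitters' processing notes; for the annotation and the strand setting the sources used here give nothing, and a gene's reads may include those of an overlapping or antisense gene. Reads outside genes (27.5% to 35.4% of a library's total), ambiguous reads (6.06% to 9.46%) and multiply aligned reads (6.98% to 10.2%) stayed out of all sums.

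Counts were filtered with filterByExpr, scaled by TMM and fitted in edgeR 4.0.16 (glmQLFit, glmQLFTest; R 4.3.3) on region alone, with the two-sided quasi-likelihood test. The adjustment over 14493 genes was Benjamini-Hochberg's, at 0.05. Each standard error (SE) comes from dividing the absolute log2 fold change by the root of its F statistic. The procedure was tested on simulated data, where it called 22 of 99 genes changed 2-fold (22.2%) and 71 of 99 changed 4-fold (71.7%). Of 13901 unchanged genes it called 1. Most 2-fold changes were thus missed, so a gene not called here may still differ between the regions. An exact permutation test of 2 against 2 libraries cannot go below 0.333 and was not used. Levels per kilobase divide CPM by the longest protein-coding transcript in GENCODE vM21, which has the build of the counts; Scn2a1 was matched to Scn2a. Gene positions are from the same annotation.

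Alternatives were DESeq2 1.42.0, limma 3.58.1 (voom), other scalings and filters, other edgeR options, length and GC offsets, a replicate block and each library left out. The channel genes, their subfamilies and the companion and marker lists were chosen with earlier results of these data known. By rule, 24 tested members were to be named (per subfamily the most abundant per kilobase and the largest difference, all sodium channel beta and HCN genes and Nalcn); the other 8 were named after their values were seen. Some of the 24, and 1 marker gene, are not reported here; counts and medians over the members include all of them. No sequences of these genes were used here.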

Additional observations from a re-analysis of the deposited data

How the results depend on the processing

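With 2 libraries per region, the counts of calls depended on the tool, the filter and single libraries, and the cause was not tested. Calls over all genes, in total, higher and lower in accumbens, were 1203, 768 and 435 with no low-count filter, 409, 283 and 126 with at least 50 counts in 2 libraries, 918, 610 and 308 by DESeq2, 431, 310 and 121 by limma-voom, and 371, 267 and 104 with the legacy option of edgeR off, against 186, 144 and 42 as reported. Library size alone gave 72 higher and 172 lower. Channel genes called were 1 with library size alone (lower), 4 with no filter (2 higher, 2 lower), 1 with at least 50 counts (lower), 3 by DESeq2 (1 higher, 2 lower) and 2 by limma-voom (1 higher, 1 lower), with the shares of all genes called standing at 1.68%, 5.68%, 3.67%, 10.4% and 2.97%. With a library left out, calls ran from 109 to 4464 over all genes (81 to 2386 higher, 28 to 2078 lower) and from 0 to 13 among the channel genes (0 to 10 higher, 0 to 3 lower). Scn4b and Cacnb4 kept their side under every setting tried, as did other members, Scn3a, Cacna1e and Cacna1g among them.

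As reported, median log2 fold changes by subfamily were -0.02 (Nav alpha), 0.07 (Nav beta), -0.17 (Cav1), 0.26 (Cav2), -0.07 (Cav3), 0.13 (alpha2delta), -0.17 (Cav beta), 0.36 (HCN) and 0.18 (NALCN). Medians by subfamily moved by more than the spread between replicates under library size alone (Nav alpha -0.19, Nav beta -0.10, Cav1 -0.34, alpha2delta -0.039, Cav beta -0.34, HCN 0.19), with no filter (Cav1 -0.71), by DESeq2 (Cav1 -0.74), with upper-quartile scaling (Cav beta -0.22), with the length offset (Cav beta -0.12) and with the GC offset (Cav beta -0.25, HCN 0.18). That spread was 0.015 on the log2 scale for Cav beta, so small shifts of its median are listed, and 0.13 to 0.24 for the other subfamilies. The Cav1 medians with no filter and by DESeq2 also took in Cacna1f and Cacna1s, at 0 to 10 counts in a library. Cacna1c and Cacna1d themselves were at -0.058 and -0.29 with no filter, and at -0.053 and -0.28 by DESeq2. With a library left out the subfamily medians ran from -0.025 to 0.21 (Nav alpha), -0.32 to -0.057 (Cav1), 0.015 to 0.45 (Cav2), -0.29 to 0.20 (Cav3), -0.21 to -0.15 (Cav beta), 0.22 to 0.49 (HCN) and -0.071 to 0.38 (NALCN). Signs turned, each time at an adjusted p above the threshold, for Scn2a1 (0.086), Scn1a (0.017), Unc80 (0.022) and Cacnb3 (-0.25) with the GC offset, Hcn2 (0.041) with the length offset, Rims2 (-0.014), Cacna2d1 (-0.031) and Cacnb3 (-0.039) with upper-quartile scaling, and Rims2 (-0.13), Rimbp2 (-0.0051), Pex5l (-0.061), Cacna2d1 (-0.15) and Cacnb3 (-0.16) with library size alone. With a library left out, values that turned ran from -0.30 to 0.21 (Scn2a1), -0.19 to 0.0076 (Scn1a), -1.14 to 0.29 (Scn7a), -0.013 to 0.40 (Scn9a), -0.083 to 0.43 (Cacna1b), -0.29 to 0.022 (Cacna1h), -0.40 to 0.20 (Cacna1i), -0.13 to 0.16 (Cacna2d1), -0.14 to 0.15 (Cacnb3), -0.16 to 0.12 (Hcn2), -0.24 to 0.88 (Hcn3), -0.69 to 0.88 (Hcn4), -0.071 to 0.38 (Nalcn), -0.064 to 0.13 (Rims2), -0.49 to 0.20 (Vapb), -0.017 to 0.22 (Pex5l) and -0.14 to 0.0041 (Unc80). Median transcript lengths in place of the longest moved 11 of 24 levels per kilobase.

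The replicate numbers are shared by the regions, but the labels do not tie them to an animal or a day, and across 14493 genes the differences between replicates 1 and 2 correlated at r = 0.033 between the regions. A replicate block gave 843 calls over all genes (551 higher, 292 lower) and 3 among the channel genes (1 higher, and 2 lower, Scn4b and Cacnb4), beside 5.82% of all genes. Scn7a and Cacna2d4 had 8 to 34 counts in a library, which limits how finely they can be compared at this depth.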
